A study of Mus musculus with 4 samples.

Results

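The 49 genes described here act in S phase and mitosis of dividing cells. They were chosen by symbol from a named list of replication and mitosis genes, and all 49 were found among the 10790 genes of the deposited table. For this account 25 were placed under S phase, the part of the cycle in which DNA is copied, and 24 under mitosis, and they were divided over 8 roles. RNA was measured in whole mouse lenses at postnatal day 4 in 2 genotypes, each with 2 libraries, and each library was a pool of 15 lenses. The control animals were wild type. The other group was homozygous null for Tdrd7 (Tdrd7 -/-), which encodes a Tudor-domain protein of RNA granules that the study's title ties to congenital cataract and to lens fiber cell shape. The labels give no strain, sex or allele design, and they call the pools of a genotype biological replicates. The p-values here thus rest on the spread between pools. For each gene that spread was estimated largely from other genes (2 residual and 11.1 prior degrees of freedom in the main fit).

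In the lens, cells divide in the epithelium that covers the anterior face, most of all in a band near the equator. Cells that leave this band stop dividing, elongate into fibers and later lose their nuclei. Before S phase the factors Cdc6 and Cdt1 load the Mcm helicase on DNA. In S phase Cdc45 joins that helicase, primase and the polymerases copy the strands behind it, and the clamp Pcna and its loader hold the polymerases in place. In mitosis the kinase Cdk1 with its cyclins drives entry and condensin packs the chromosomes. A checkpoint delays the separation of the sister chromosomes until the spindle has attached to all of them. The Mcm, polymerase and nucleotide genes are known targets of E2F factors. Many of the mitosis genes carry CCAAT boxes and a cell cycle homology region (CHR), the sites used by NF-Y and by the MuvB complex with B-Myb or Foxm1. In bulk RNA from whole lenses, fewer dividing cells and less RNA of these genes per dividing cell cannot be told apart.

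The promoters of 6 members are shown because promoters of S phase and of mitosis genes are known to carry different cell cycle motifs, and the members are described by phase after them. Each sequence is the 250 bases before the annotated start, 5′ to 3′ on the gene's strand, taken from RefSeq on GRCm38.p6. Capitals mark every match, on either strand, to CCAAT, to a CHR (TTTGAA or TTCGAA) or to an E2F site (TTTCCCGC, TTTCGCGC, TTTGCCGC or TTTGGCGC). Top2a is at chr11:99024190-99024439 (minus strand), Mki67 at chr7:135716380-135716629 (minus), Cdk1 at chr10:69352913-69353162 (minus), Prc1 at chr7:80294201-80294450 (plus), Pola1 at chrX:93632156-93632405 (minus) and Mcm6 at chr1:128359706-128359955 (minus).
Top2a: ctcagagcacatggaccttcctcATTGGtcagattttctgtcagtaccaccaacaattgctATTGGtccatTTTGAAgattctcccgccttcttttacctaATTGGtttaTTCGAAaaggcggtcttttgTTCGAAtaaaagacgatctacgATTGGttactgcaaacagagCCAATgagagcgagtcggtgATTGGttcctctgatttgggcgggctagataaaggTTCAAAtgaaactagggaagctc
Mki67: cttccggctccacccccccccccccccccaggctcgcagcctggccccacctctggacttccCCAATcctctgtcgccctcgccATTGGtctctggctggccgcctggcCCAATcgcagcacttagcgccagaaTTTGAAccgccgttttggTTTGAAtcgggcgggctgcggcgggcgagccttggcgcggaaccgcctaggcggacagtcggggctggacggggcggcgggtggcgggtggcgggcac
Cdk1: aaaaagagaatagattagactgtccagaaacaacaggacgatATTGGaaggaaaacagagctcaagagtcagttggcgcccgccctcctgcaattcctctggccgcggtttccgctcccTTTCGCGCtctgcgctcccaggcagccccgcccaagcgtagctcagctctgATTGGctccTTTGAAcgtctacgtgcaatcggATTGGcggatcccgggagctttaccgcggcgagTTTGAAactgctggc
Prc1: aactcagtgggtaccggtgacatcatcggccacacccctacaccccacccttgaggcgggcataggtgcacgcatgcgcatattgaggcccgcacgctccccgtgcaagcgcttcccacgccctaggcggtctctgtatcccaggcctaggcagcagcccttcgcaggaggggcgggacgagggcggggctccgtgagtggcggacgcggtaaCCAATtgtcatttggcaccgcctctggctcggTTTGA
Pola1: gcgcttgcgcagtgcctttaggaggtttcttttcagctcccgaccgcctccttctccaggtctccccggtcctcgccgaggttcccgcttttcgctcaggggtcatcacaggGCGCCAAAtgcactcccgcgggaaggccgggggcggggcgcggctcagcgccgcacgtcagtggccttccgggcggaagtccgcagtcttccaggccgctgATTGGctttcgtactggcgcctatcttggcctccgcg
Mcm6: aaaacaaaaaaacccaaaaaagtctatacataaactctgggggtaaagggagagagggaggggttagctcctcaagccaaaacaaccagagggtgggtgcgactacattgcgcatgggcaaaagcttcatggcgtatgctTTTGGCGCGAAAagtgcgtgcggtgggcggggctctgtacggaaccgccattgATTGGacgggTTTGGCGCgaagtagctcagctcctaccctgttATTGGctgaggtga

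Top2a held 6 CCAAT matches and 4 CHR matches in this stretch, and Mki67 held 3 and 2. Cdk1 held 3 CCAAT matches, 2 CHR matches and 1 E2F match. In Prc1 the only CHR match began 5 bases before the start and its last base lay past the end of the printed stretch. Pola1 and Mcm6 held no CHR match. Pola1 had 1 E2F match, on the opposite strand, and Mcm6 had 3, of which 2 overlapped on opposite strands. RefSeq windows of 300 bases, 250 before the start and 50 after it, were found for 40 of the 49 members (21 of S phase and 19 of mitosis). There was none for Ccne2, Tpx2, Pole, Mcm4, Rfc2, Foxm1, Ccna2, Aurkb and Smc4. In the window, a CHR occurred in 15 of 19 mitosis members (78.9%) and in 4 of 21 S phase members (19.0%), against 12.9% of the 8182 genes of the deposited table with a window. An E2F match occurred in 8 of the 21 S phase members (38.1%) and in 2 of the 19 mitosis members (10.5%), against 4.29% of those genes. CCAAT occurred in 17 mitosis members (89.5%) and 13 S phase members (61.9%), against 39.3%. All 15 mitosis members with a CHR also had a CCAAT, a pair found in 5.66% of the table's genes. Over all 32851 RefSeq windows the shares were 19.2% for a CHR, 37.4% for CCAAT and 2.26% for E2F. These matches describe letters and show no binding.

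The genotype labels were checked first. Tdrd7 was measured at 1188 and 972 scaled reads in the controls but at 165 and 96.6 in the null pools (log2 fold change -3.08, limma adjusted p = 1.17e-06). Scaled reads are the deposited values, which are read counts divided by 1 factor per library, without correction for gene length. Reads in listed genes ran from 33920522 (null replicate 2) to 42767535 (control replicate 2), and crystallins took 59.7% of the values in null replicate 2 and 62.3% to 63.0% in the other 3 libraries. The tissue label was checked against markers. Lens epithelium markers summed to between 3125 and 3268 scaled reads in the 4 libraries. Pax6 stood at 107 to 112, the epithelial cadherin Cdh1 at 73.1 to 75.5 and the fiber membrane channel Mip between 4658 and 5026. Pax6, Cdh1 and Mip were not called by limma at an adjusted p under 0.05, but other markers were. Of 16 epithelium markers, 2 were called higher in the null pools and 2, among them Foxe3, lower. Of 21 fiber markers, 1 was called higher and 3 lower, with log2 fold changes from -0.38 to 0.46 over the list. With the trend of each library along GC content and transcript length removed, 0 fiber markers and 1 epithelium marker (lower) were called. No macrophage, corneal or retinal neuron marker of the lists used was among the listed genes, from which low genes had been removed before deposit. Of 8 erythroid markers 1 was listed and 0 were tested. Of 8 pigment cell markers 2 were tested and 0 were called. For both, the null pools were above both controls, as for 30.2% of all genes.

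The members were expressed at low to middle levels. Per kilobase of transcript, their median level was 1.84 scaled reads, against 3.60 over all genes tested, and 9 of 49 were above the latter. The clamp Pcna was highest at 9.72 scaled reads per kilobase. It was followed by the helicase subunit Mcm2 at 7.69, the clamp loader subunit Rfc1 at 6.84, Mcm7 at 5.80, the ribonucleotide reductase subunit Rrm1 at 5.31 and topoisomerase Top2a at 5.0. The lowest were the loading factor Cdc6 at 0.26 and cyclin E2 (Ccne2) at 0.38. All 49 passed the minimum mean of 1 scaled read, 21 had a mean under 5, and a member was read between 38 and 1395 times in a library.

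**Figure D1:**
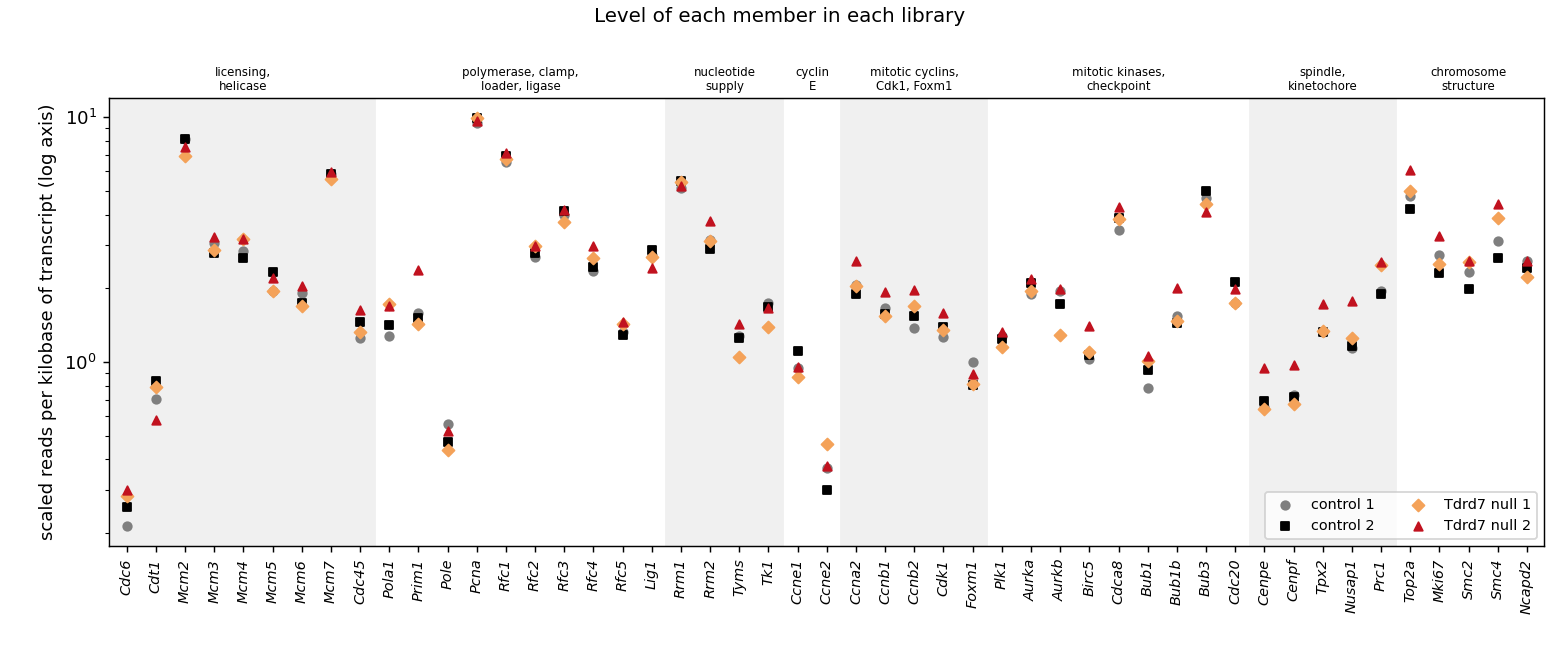
Level of each of the 49 members in the 4 libraries, in scaled reads per kilobase of transcript on a log axis, ordered by role. Each point is 1 library. Pcna, with a mean of 9.72, is the highest member and Cdc6, at 0.26, the lowest, and the 4 libraries lie close together for most members.

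Comparing Tdrd7 null with control asks whether the RNA of the replication and mitosis machinery differed between the lenses. Of the 49 members, 4 rose in the null lenses, 0 fell and 45 did not pass limma's test at an adjusted p under 0.05. Those that rose were the condensin subunit Smc4, the spindle midzone protein Prc1, the polymerase alpha subunit Pola1 and topoisomerase Top2a. The 4 make up 8.16% of the members, beside 18.0% of all genes tested that were called (10.1% higher and 7.88% lower), and the gap was not tested. By phase, 1 of 25 S phase members (4.0%) and 3 of 24 mitosis members (12.5%) rose. The members had a median log2 fold change of 0.11 (0.02 in S phase and 0.17 in mitosis), beside -0.005 over all genes tested, and no test was made of these medians. The estimate was above 0 for 33 of 49 members (67.3%) and for 48.9% of all genes. At an unadjusted p under 0.05, 7 members were higher (all genes: 17.3%) and 2 were lower (all genes: 15.8%). The 95% interval held 0 for 40 members, and for 47 it lay wholly within 0.585 of 0 on the log2(scaled reads + 1) scale, with a median half-width of 0.23. That scale is used for every fold change here, and it understates the fold in reads of low members.

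**Figure D2:**
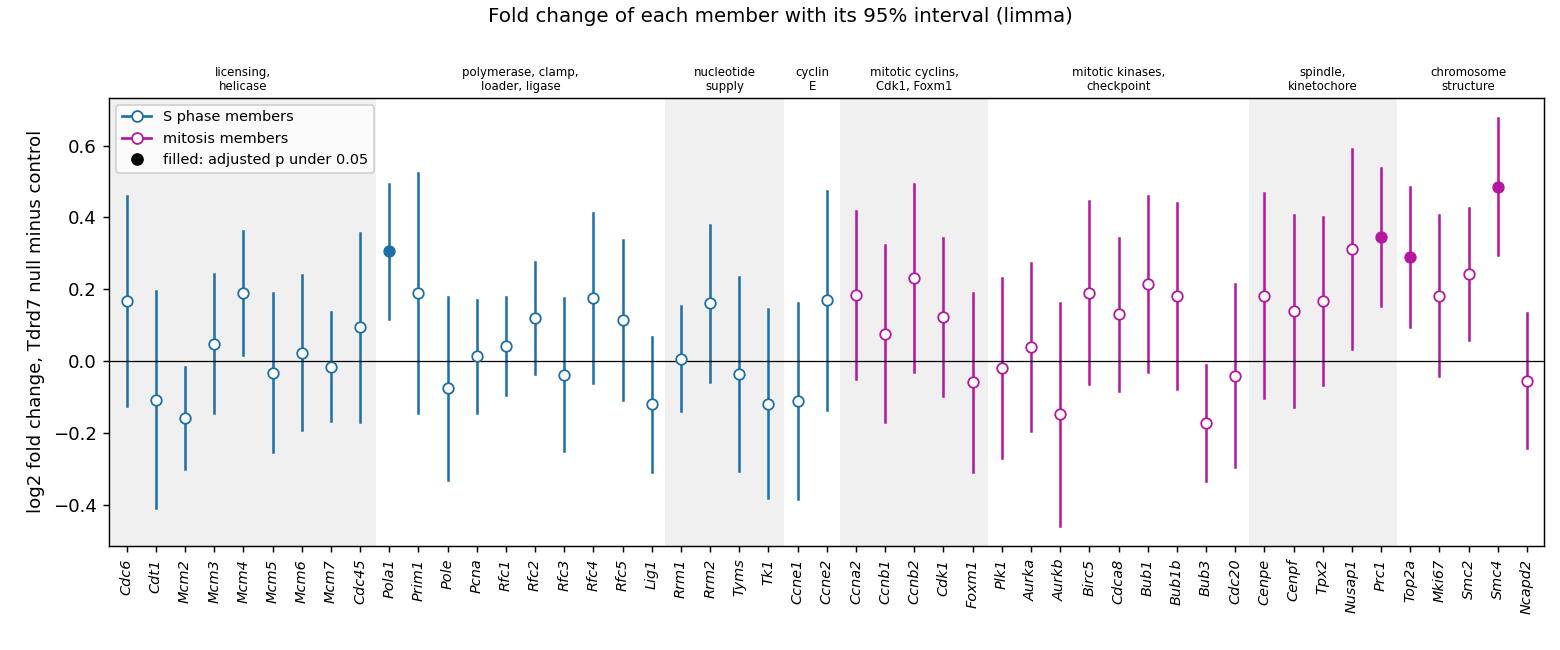
Log2 fold change (Tdrd7 null minus control, on the log2(scaled reads + 1) scale) of each member with its 95% interval from limma, ordered by role, with filled points for an adjusted p under 0.05. The 4 filled points are Pola1, Prc1, Top2a and Smc4, all above 0, and the intervals of 40 members cross 0.

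Smc4 is an ATPase at the core of the condensin complexes, which compact chromosomes (chr3:69004738-69034623, plus strand, GRCm38). It stood at 13.4 and 11.5 scaled reads in the 2 controls and at 16.7 and 19.0 in the null libraries. Both null pools were above both control pools, and null replicate 2 was the highest. The log2 fold change was 0.49 ± 0.09 (SE), or 1.4-fold on that scale, with a limma adjusted p of 0.0042. Its partner Smc2 went the same way, from 12.6 and 10.7 to 13.8 and 14.0, without passing (0.24, adjusted p = 0.066 in limma), also with no overlap of the groups. Ncapd2, a subunit of condensin I alone, had an estimate of -0.05 (limma adjusted p = 0.702).

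Prc1 bundles the antiparallel microtubules of the spindle midzone before the cell divides (chr7:80294450-80316259, plus strand). It stood at 5.89 and 5.72 scaled reads in the 2 controls and at 7.56 and 7.74 in the null libraries. The libraries within each genotype lay close together and the genotypes did not overlap. Its log2 fold change was 0.35 ± 0.09 (SE), or 1.27-fold on that scale, with a limma adjusted p of 0.020. Prc1 shares 911 nt of exonic sequence with Rccd1 on the opposite strand, and in an unstranded library the reads of the pair could not be separated.

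Pola1 is the catalytic subunit of polymerase alpha, which extends the primers of both strands (chrX:93304767-93632155, minus strand). It stood at 6.85 and 7.55 scaled reads in the 2 controls and at 9.18 and 9.07 in the null libraries. Here null replicate 1 was slightly above null replicate 2, and both were above the controls. The log2 fold change was 0.31 ± 0.09 (SE), or 1.24-fold on that scale, with a limma adjusted p of 0.030.

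Top2a untangles and helps to condense DNA in dividing cells (chr11:98992943-99024189, minus strand). It stood at 24.8 and 21.9 scaled reads in the 2 controls and at 25.9 and 31.8 in the null libraries. The groups did not overlap, but null replicate 1 exceeded control replicate 1 by little and the rise lay mostly in null replicate 2. The log2 fold change was 0.29 ± 0.09 (SE), or 1.22-fold on that scale, with a limma adjusted p of 0.041. Top2a shares 122 nt of exonic sequence with the predicted gene Gm23451.

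Each of these calls depended on the libraries in the fit. With each library left out in turn, the estimates of the 4 called members stayed above 0. Prc1 ran from 0.33 to 0.36, Pola1 from 0.24 to 0.37, Smc4 from 0.38 to 0.59 and Top2a from 0.15 to 0.43. Without control replicate 1, only Smc4 was called among the members (all genes: 4.03%), and without control replicate 2 none was (all genes: 4.84%). Without null replicate 2 again only Smc4 was called (all genes: 8.52%). Without null replicate 1, 11 members were called, all higher: Bub1b, Ccna2, Cenpe, Cenpf, Mki67, Nusap1, Prc1, Prim1, Smc4, Top2a and Tpx2 (all genes: 20.5%). In each of these fits 1 genotype had a single library, which was assumed to vary like the pair of the other genotype. With a prior for the variance that did not follow the expression level, no member was called (all genes: 0.150%). Top2a also missed the threshold when the libraries were scaled to their totals without crystallins (limma adjusted p = 0.0657), and Pola1 did in limma's voom on the recovered reads, an alternative chosen after seeing the data (adjusted p = 0.0558).

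The calls of each role below are to be read beside the 18.0% of all genes that were called. Both null pools were above both controls for 30.2% of all genes and below both for 31.3%. Among the factors that load and run the helicase, none of 9 passed the test. Mcm2, with the highest level per kilobase in this role, stood at 27.3 and 27.4 scaled reads in the 2 controls and at 23.5 and 25.5 in the null libraries. Both null pools were below both controls, by a log2 difference of -0.16 (limma adjusted p = 0.113). Its partner Mcm4 had the opposite order, 10.2 and 9.53 in control against 11.4 in each null pool (0.19, adjusted p = 0.117 in limma). The other 4 subunits of the helicase ring, Mcm3, Mcm5, Mcm6 and Mcm7, had estimates of 0.05, -0.03, 0.02 and -0.01, with overlapping groups. The estimates of the 6 subunits of this complex thus had both signs. The loading factors Cdc6 (0.17) and Cdt1 (-0.11) and the helicase partner Cdc45 (0.09) did not pass either.

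In the polymerase group, Pola1 was the only call among 10. Pcna, the sliding clamp, stood at 14.3 and 15.1 scaled reads in the 2 controls and at 15.1 and 14.6 in the null libraries. The pools of the genotypes overlapped, and the log2 difference was 0.01 (95% interval -0.14 to 0.17, limma adjusted p = 0.915). Prim1, the primase subunit that works with Pola1, stood at 2.51 and 2.39 in control and at 2.26 and 3.75 in the null libraries, so only null replicate 2 was high. The clamp loader subunits Rfc1 to Rfc5 had estimates of 0.04, 0.12, -0.04, 0.18 and 0.11. Both null pools were above both controls for Rfc2, Rfc4 and Rfc5 (all genes: 30.2%). Pole, the leading strand polymerase (-0.08), and Lig1, which joins lagging strand fragments (-0.12), did not pass.

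None of the 4 enzymes that supply nucleotides passed. Rrm1, the large subunit of ribonucleotide reductase, stood at 20.5 and 21.8 scaled reads in control and at 21.7 and 20.8 in the null libraries. The groups overlapped and the log2 difference was 0.007 (limma adjusted p = 0.956). Rrm2, the subunit made anew in S phase, stood at 6.90 and 6.34 in control and at 6.84 and 8.25 in the null libraries. Only null replicate 2 stood above the controls (0.16, limma adjusted p = 0.291). Thymidylate synthase Tyms (-0.04) and thymidine kinase Tk1 (-0.12) did not pass. Of the E cyclins, which start S phase with Cdk2, Ccne1 stood at 1.88 and 2.22 in control and at 1.73 and 1.91 in the null libraries, and the groups overlapped (-0.11, limma adjusted p = 0.573). Ccne2 had an estimate of 0.17, at 1.38 or fewer scaled reads in every library.

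The drivers of mitotic entry had 0 calls in 5. Cdk1, the kinase of mitosis, stood at 5.52 and 6.08 scaled reads in control and at 5.91 and 6.93 in the null libraries (0.12, limma adjusted p = 0.428). Cyclin A2 (Ccna2) stood at 6.13 and 5.63 in control and at 6.07 and 7.63 in the null libraries (0.18, limma adjusted p = 0.259). Cyclin B1 (Ccnb1), the partner of Cdk1, stood at 4.12 and 3.90 in control and at 3.83 and 4.79 in the null libraries (0.08, limma adjusted p = 0.677). For all 3 genes null replicate 1 lay within or below the control range and null replicate 2 above it. Ccnb1 also has 4 near-identical pseudogene copies, so its reads may have been split. Ccnb2 (0.23) was above the controls in both null libraries without passing, and Foxm1, the transcription factor of many mitosis genes, had an estimate of -0.06.

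Of the 9 mitotic kinases and checkpoint members none passed. Bub3, a checkpoint protein that brings Bub1 and Bub1b to unattached kinetochores, had the highest level per kilobase in this role. It stood at 15.99 and 17.0 scaled reads in control and at 15.1 and 14.0 in the null libraries. Both null pools were below both controls, with a log2 difference of -0.17 (limma adjusted p = 0.127). Its partners had the opposite sign without passing, with 0.21 for Bub1 and 0.18 for Bub1b. The chromosomal passenger genes Aurkb, Birc5 and Cdca8 had estimates of -0.15, 0.19 and 0.13. Aurkb, the kinase of that complex, was spread widely within the null genotype, at 2.50 in replicate 1 and 3.86 in replicate 2. The kinases Plk1 (-0.02) and Aurka (0.04) and the anaphase activator Cdc20 (-0.04) had small estimates with overlapping groups.

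All 5 spindle and kinetochore members had estimates above 0, and 1 of them, Prc1, passed. Nusap1, which binds and bundles spindle microtubules, stood at 4.03 and 4.09 scaled reads in control and at 4.42 and 6.28 in the null libraries (0.31, limma adjusted p = 0.110). The kinetochore motor Cenpe stood at 5.19 and 5.46 in control and at 5.08 and 7.46 in the null libraries (0.18, limma adjusted p = 0.361). Cenpf, a large kinetochore protein, stood at 8.18 and 8.0 in control and at 7.50 and 10.8 in the null libraries (0.14, limma adjusted p = 0.462). In each of these genes null replicate 2 stood far from the other 3 libraries, which lay close together. Tpx2, which activates Aurka on the spindle, had the same pattern with an estimate of 0.17. Of the chromosome structure genes, Mki67, the coat protein of mitotic chromosomes used as a marker of dividing cells, stood at 27.5 and 23.3 in control and at 25.3 and 32.9 in the null libraries. The groups overlapped, since null replicate 1 lay between the controls (0.18, limma adjusted p = 0.242).

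Over the members as a set, a single library therefore carried much of the difference. Among the called members this held for Top2a, at 0.15 without null replicate 2 against 0.29 with all 4 libraries. Smc4 stood at 0.40 against 0.49, Prc1 at 0.33 against 0.35 and Pola1 at 0.31 in both fits. Null replicate 2 was the highest of the 4 libraries for 33 of 49 members (67.3%), against 30.1% of all genes tested. In mitosis it was the highest for 20 of 24 members (83.3%) and in S phase for 13 of 25 (52.0%). It exceeded null replicate 1 in 41 of 49 members, with a median log2 difference of 0.15, against 0.004 over all genes. In mitosis this was 23 of 24 members with a median of 0.20, and for the 5 spindle and kinetochore members the median was 0.43. The exception in mitosis was Bub3. Relative to the control mean, the median mitosis member stood at 0.007 in null replicate 1 and at 0.28 in null replicate 2. Of the 24 mitosis members, 9 were above both controls in null replicate 1 and 20 in null replicate 2, and of the 25 S phase members 7 and 16 were. Of all genes tested, 38.6% were above both controls in null replicate 1 and 41.1% in null replicate 2. Both null libraries were above both controls for 16 members (all genes: 30.2%) and below both for 4 (all genes: 31.3%), and in 29 the groups overlapped.

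**Figure D3:**
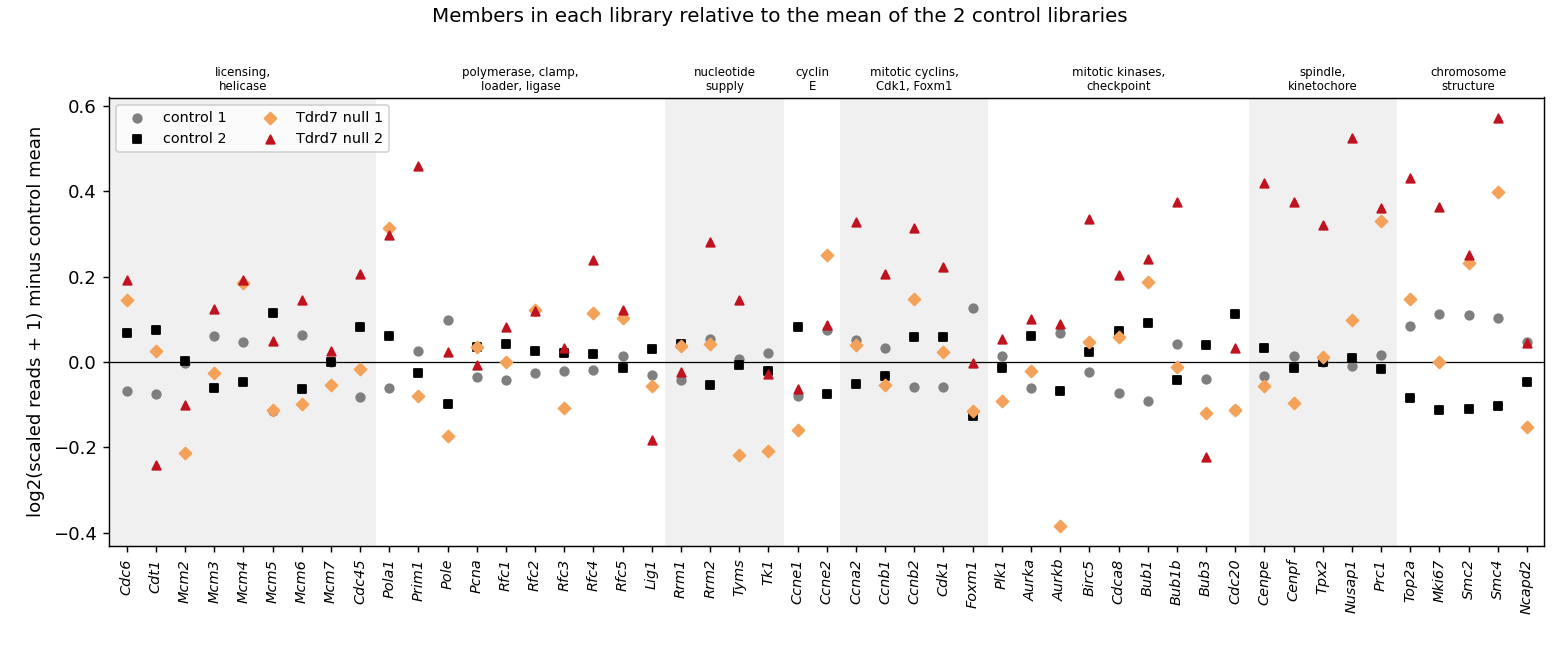
Each member in each library on the log2(scaled reads + 1) scale, minus the mean of the control libraries, ordered by role. Null replicate 2 (triangles) is the highest library for 33 of 49 members and for all 5 spindle and kinetochore members, while null replicate 1 (diamonds) lies near 0 for many of the same genes.

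Summed over the 24 mitosis members, scaled reads added up to 188.5 (control replicate 1), 178.6 (control replicate 2), 190.4 (null replicate 1) and 227 (null replicate 2). The first 3 sums lay within a narrow band and the fourth stood above it. Over the 25 S phase members the sums were 213.9, 218.4, 214.2 and 226.8 in the same order, a smaller spread. The control pools also differed for some members: control replicate 2 was below control replicate 1 for all 5 chromosome structure members, with a median difference of -0.21, so Top2a, Mki67, Smc2 and Smc4 varied between pools of 1 genotype too. Over all members the median difference between the controls was 0.002.

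**Figure D4:**
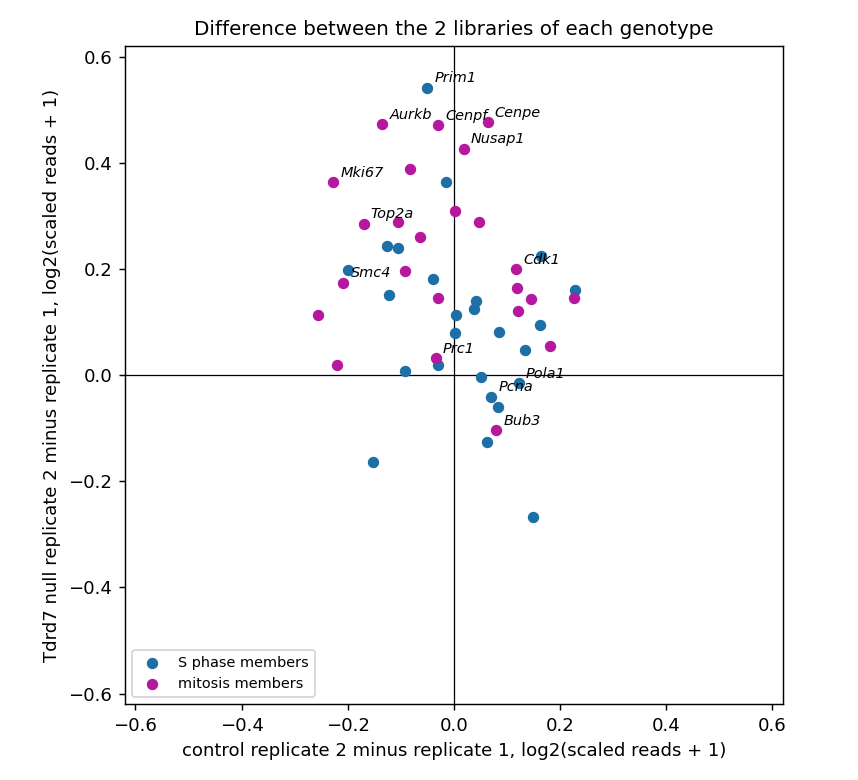
Difference between the 2 libraries of each genotype for every member, on the log2(scaled reads + 1) scale, with control replicate 2 minus 1 on the horizontal axis and null replicate 2 minus 1 on the vertical axis. The members spread to both sides of 0 along the control axis (median 0.002), while 41 of 49 lie above 0 along the null axis (median 0.15).

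Markers of vessel cells also varied between libraries. Of 10 endothelial markers 9 were tested and 0 were called by limma, 0 also at an unadjusted p under 0.05. Their summed scaled reads were 30.1 in control replicate 1, 20.4 in control replicate 2, 24.2 in null replicate 1 and 30.8 in null replicate 2. The lowest sum was that of control replicate 2 and the highest that of null replicate 2. These ends were shared by 11 of 49 members, against 13.7% of all genes tested. Of the called members, Smc4, Prc1 and Top2a had them and Pola1 did not. The sum over mitosis members had these ends too, but the sum over S phase members did not. The whole order of the 4 libraries was shared by 5 members, Mcm3, Rrm2, Ccna2, Bub1b and Mki67, against 3.64% of all genes tested. It places null replicate 1 below control replicate 1. The 4 called members, with both null pools above both controls, could not have it. Null replicate 2 was the highest library for 6 of the 9 tested endothelial markers. The 2 markers with the highest levels, Egfl7 (6.84 to 7.64) and Tek (6.57 to 7.26), varied little. Cdh5, the cadherin of endothelial junctions, chosen after its values were seen, stood at 3.47, 1.09, 2.23 and 3.72. The 5 pericyte markers summed to 69.5 in each control library and to 65.8 and 58.6 in the null libraries, with a median log2 fold change of 0.06. Notch3 (-0.50) and Pdgfrb (-0.34) were lower by limma (adjusted p = 0.0031 and 0.022), and with the GC and length trend removed neither was called (0.124 and 0.271). The other 3 had estimates above 0 without passing, and Rgs5, at 7.53, 2.86, 5.05 and 7.80, had the order of the endothelial sums. Both tested ciliary body markers, of 8 listed, were lower in the null pools, Mfap2 by limma at -0.29 (adjusted p = 0.0056) and Mfap4 at -0.21 (0.042), and neither was called with that trend removed (0.077 and 0.164). Lens epithelium markers had their highest sum in control replicate 2, and null replicate 2 was the highest library for 2 of 16. The part of vessel and ciliary cells in the members' values was not tested.

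The sign of a member's difference ran with the base composition of its transcript, as it did over all genes. Among members with a GC content under 45%, the median log2 fold change was 0.19 (14 members, 3 called higher). All 2487 genes of that class had a median of 0.16, and 28.8% of them were called higher. From 45% to 50% the medians were 0.16 (17 members, 1 called higher) and 0.04 (2824 genes, 9.28% called higher). At 50% or more they were -0.05 (18 members, 0 called) and -0.10 (5345 genes, 1.85% called higher). Mitosis members had a median GC content of 47.0%, S phase members 49.3% and all genes 50%. When the trend of each library along GC content and transcript length was removed, no member was called higher and 1, Bub3, was called lower (-0.33, limma adjusted p = 0.036), where 2.94% of all genes were called. On that scale Smc4 was 0.30 (adjusted p = 0.068 in limma), Prc1 0.25 (0.141), Top2a 0.19 (0.253) and Pola1 0.16 (0.381). The helicase subunit Mcm2, at 55.5% GC, went from -0.16 to -0.04, and Mcm4, at 45.5% GC, from 0.19 to 0.10. The median over members became 0.06, with 0.09 in mitosis and -0.0009 in S phase. The cause of the trend on base composition was not tested.

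**Figure D5:**
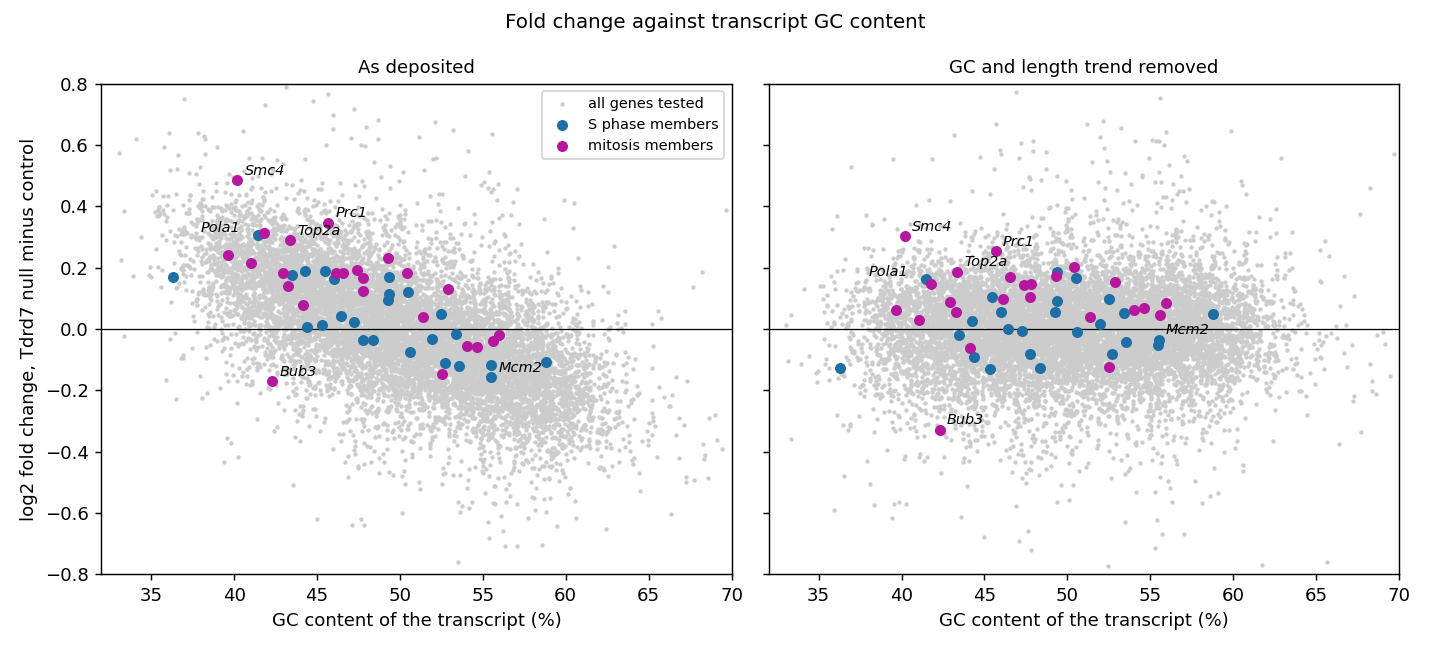
Log2 fold change of all genes tested (grey) and of the members (blue for S phase, purple for mitosis) against the GC content of the transcript, as deposited (left) and with that trend removed along GC content and length in every library (right). The axis ends at 0.8 in both directions, which leaves out 16 genes on the left. On the left the members follow the slope of all genes, with Smc4 above it and Bub3 below it.

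Genes of the same machinery that are not members were read from the same fit, in which 10.1% of all genes rose and 7.88% fell. Of 50 other replication genes 3 (6.0%) rose, 0 fell and 47 did not pass, with a median of 0.03. The 3 were the origin recognition subunits Orc2 (0.24) and Orc4 (0.28) and the fork protection factor Timeless (0.48). Timeless stood at 28.9 and 18.5 in control and at 33.2 and 32 in the null libraries, so the control pools were far apart. Of 101 other mitosis genes 7 (6.93%) rose, 3 fell and 91 did not pass, with a median of 0.12. Those with the smallest p among the 7 were the checkpoint protein Mad2l1 (0.42), the anaphase-promoting complex subunits Anapc13 (0.27) and Anapc10 (0.31) and the spindle motility factor Hmmr (0.42). The 3 that fell were the augmin subunit Haus7 (-0.37), the anaphase-promoting complex activator Fzr1 (-0.35) and the histone variant H2afx (-0.26). Null replicate 2 was the highest library for 55 of the 101 (54.5%). With the GC and length trend removed, 1 rose and 1 fell in each of these lists. Of the genes named here, Timeless (0.62), Anapc13 (0.30) and Haus7 (-0.39) were called there, and the other 7 were not.

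Upstream of the cycle, 2 of 39 G1 regulators and inhibitors (5.13%) rose, 2 fell and 35 did not pass, shares below those of all genes (10.1% and 7.88%) with no test of the gap, and null replicate 2 was the highest library for 25.6% of them. Ccnh and Mnat1, which with Cdk7 form the kinase that activates other cyclin-dependent kinases, were higher in both null libraries (log2 0.40 and 0.30). Cyclin D3 (Ccnd3), a G1 cyclin, and the transcription factor Mycn were lower (-0.32 and -0.25). None of the 4 was called with the GC and length trend removed, at 0.13 for Ccnh, 0.06 for Mnat1, -0.17 for Ccnd3 and -0.16 for Mycn (limma adjusted p = 0.351, 0.723, 0.113 and 0.156). Foxe3, a transcription factor of the lens epithelium that keeps these cells dividing, stood at 39.7 and 43.8 in control and at 31.8 and 29.8 in the null libraries. Both null pools were below both controls (log2 -0.43, limma adjusted p = 0.0021), but with the trend removed the difference was -0.15 and was not called (adjusted p = 0.136). Other epithelial markers went both ways, with Slc2a1 lower (-0.27), Gja1 and Mgarp higher (0.33 and 0.23) and 12 of 16 not called. Of these 3, only Slc2a1 was called with the trend removed (-0.18, limma adjusted p = 0.049).

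Overlap with other genes bears on 15 members, whose exons run over those of a neighbour for 100 nt or more (Mcm7, Cdc45, Rfc2, Rfc4, Rfc5, Lig1, Ccne2, Ccna2, Foxm1, Plk1, Cdca8, Nusap1, Prc1, Top2a and Ncapd2). Pseudogene copies of at least 200 nt at 95% identity or more exist for 7 members (Cdc6, Mcm7, Pcna, Rfc5, Rrm2, Ccnb1 and Mki67). Their values are uncertain to that extent, since how such reads were counted is not stated in the labels.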

How the data were processed

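PolyA-selected RNA of whole lenses was read from both ends on an Illumina HiSeq with an unstranded TruSeq kit, per the labels. Per the submitters' processing notes, the tools include TopHat2 2.0.9, Trimmomatic, Cuffnorm and Cufflinks, and the build is mm10 (GRCm38). How reads were counted and scaled is not given. The deposited signal values lay within 0.0020 reads of whole multiples of 1 step per library (0.0241 and 0.0237 in control, 0.0266 and 0.0282 in null), so they are reads divided by 1 factor per library. The lowest maximum of any gene was 1.02, so low genes were removed before deposit.

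Values were taken as log2(scaled reads + 1), which understates changes of low genes. All 10696 genes with a mean of at least 1 entered limma 3.58.1 (R 4.3.3) with a variance prior that followed expression, two-sided tests, Benjamini-Hochberg adjustment and a call at an adjusted p under 0.05. Residual degrees of freedom (2) were joined by 11.1 from the prior. Permuting 2 libraries against 2 exactly gives no p below 0.333. FPKM or counts had been expected. The deposited values were not whole numbers as given and were fitted by limma on a log scale. The planned count models, edgeR and DESeq2, were not run on the reads recovered from them. The longest protein-coding transcript in GENCODE M21 gave GC content and length (10750 of 10790 genes), and splines with 5 degrees of freedom each removed their trend per library. Shared exonic sequence came from that annotation and pseudogene copies from BLAST 2.17.0. The fit was tested on simulated data.

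The members and gene lists were chosen with earlier results of these data known, although the rule that picks members uses no measured value. Values per library are given for called members, for Mki67, Top2a, Cdk1, Ccnb1, Ccna2, Mcm2, Pcna and Rrm2, and for the member of each role with the highest level per kilobase. Of other lists, up to 4 called genes per direction were taken by smallest p, or the 2 with the highest level where none was called. This was not followed for the called fiber markers and the pigment cell markers, which are not named. Pax6, Cdh1 and Mip are named outside this rule. Per-library values of other members, of Timeless, Cdh5 and Rgs5 were chosen after they were seen. Alternatives were other pseudocounts, filters, scalings and priors, the GC and length trend, a block on the replicate number, fits without each library, voom and a crossed pairing.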

Additional observations from a re-analysis of the deposited data

How the results depend on the processing

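As reported, 4 members and 1920 of all genes were called. Pseudocounts of 0.1 and 5, no filter, a minimum mean of 5, and TMM or median-of-ratios scaling called the same 4 members. Scaling to the total without crystallins called 3 (not Top2a) and moved the median of all genes to -0.04, with 768 genes higher and 1262 lower against 1077 and 843, so differences on that scale are to be read against that shift. Without the expression trend in the prior, 0 members and 16 genes were called. With the GC and length trend removed, 1 member and 313 genes were called, and the same numbers with the replicate block added. Voom on the recovered reads, chosen after seeing the data, called 3 members (not Pola1) and 987 genes. Leaving out each library in turn gave 0 to 11 members, 431 to 2196 genes (each fit with 1 library in an arm, assumed to vary like the other arm) and a median member fold change between 0.00048 (without null replicate 2) and 0.15.

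The replicate number is not said to pair the libraries, and deviations of same-numbered libraries correlated at -0.151 across genes. With it as a block, 6 members were called (Nusap1 and Smc2 in addition) and 2117 genes. A crossed pairing, added after seeing this, called 7 members and 3036 genes.

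Small differences changed sign. Ccnb1 became -0.062 with the GC and length trend removed, with or without the block, and ran from -0.053 (without null replicate 2) to 0.21 when single libraries were left out. Pcna became -0.024 without crystallins and -0.13 with the trend removed, with or without the block, and ran from -0.021 (without control replicate 1; -0.0062 without null replicate 1) to 0.049. Rrm1 became -0.032 and -0.093 under the same settings and ran from -0.035 (without control replicate 1; -0.023 without null replicate 1) to 0.049. The cause was not tested. The count models planned for whole-number counts (edgeR and DESeq2) were not run. With 2 pools per genotype, the median 95% interval reached 0.23 to each side on the log2 scale. The smallest difference of a called member was 0.29 and the largest of a member not called was 0.31.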
